A study of Mus musculus with 6 samples.

Results

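Kit, Akt1, Akt2, Foxo3, Tsc1, Tsc2, Mtor and Rptor carry the growth signal that oocytes take from the cells around them, and their transcripts were compared between mouse oocytes with and without a mitofusin, a protein that fuses mitochondria. The 8 genes were chosen by symbol, with earlier results of these data known. All 8 were found among the 25353 genes of the table. The study measured RNA in germinal vesicle (GV) oocytes, which are arrested in the first meiotic prophase, of C57BL/6J mice. The protocol text gives their age as 8 weeks, and the age tag as P1. Each library was made from 5 pooled oocytes, and 3 libraries stand for the wild type (WT) and 3 for the knockout (KO). The labels name Mfn2-/- in the series text and Mfn1-/- in the sample fields, and they name no promoter or Cre that drives the deletion. The pools are not tied to single mice, so p-values measure the spread between these pools.

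Kit is a receptor tyrosine kinase on the oocyte surface, and its ligand is made by granulosa cells. The bound receptor activates PI3-kinase (PI3K), whose lipid product recruits the AKT kinases. AKT keeps the transcription factor FOXO3 out of the nucleus, which wakes dormant oocytes, and it inhibits the TSC1 and TSC2 complex, which holds back the growth kinase mTOR.

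None of the 8 genes passed the test between KO and WT (limma-trend, Benjamini-Hochberg adjusted p under 0.05 over 18762 tested genes). By the same test 615 of all tested genes, 3.28%, were called. At an unadjusted p under 0.05 in limma, 4 of the 8 (Mtor, Tsc2, Foxo3 and Akt2) were counted, all with higher means in KO, against 9.16% of all genes counted as higher at that threshold. No member passed an adjusted p of 0.05 in edgeR or DESeq2, where 6.03% and 6.84% of the genes with an adjusted p were called. The median log2 fold change (KO minus WT) of the 8 was 0.34, with 6 above 0 and 2 below, beside a median of -0.01 over all tested genes. The KO and WT values did not overlap in 2 of the 8, Mtor and Tsc2, both higher in KO, against 11.5% of all tested genes that were separated in that direction.

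**Figure D1:**
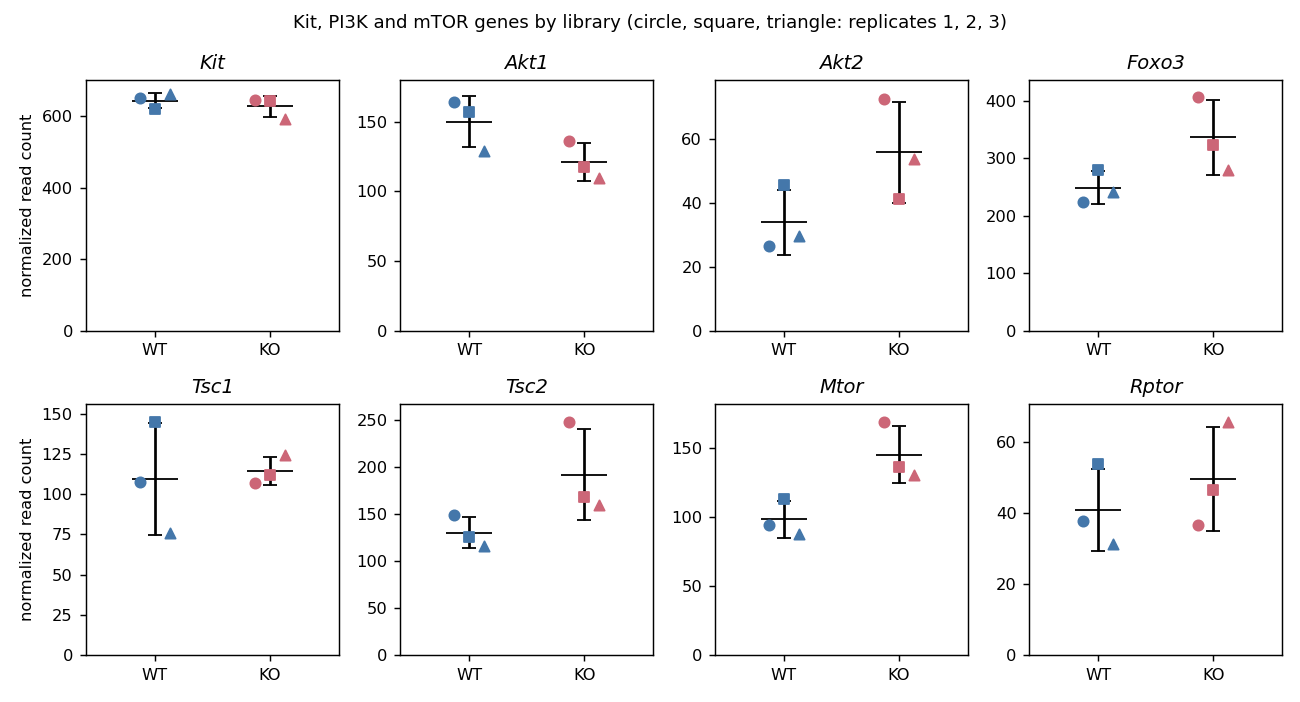
Normalized read counts (vertical axes from 0) of the 8 genes in the 3 WT (blue) and 3 KO (red) libraries; black bars give the mean and SD, n = 3 each. The Kit points of both groups lie together between 594 and 661, and all KO points lie above all WT points only for Tsc2 and Mtor.

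The libraries behind these values held 6450191 to 7992598 reads assigned to genes. Mfn2 had 25.5 to 38.1 normalized read counts in WT and 4.50 to 5.28 in the libraries labelled KO (limma adjusted p = 0.00487), whereas Mfn1 had 298.5 to 363 and 379 to 398 (adjusted p = 0.482). The label that names Mfn1 therefore goes against these counts, and every direction here is that of the libraries labelled KO. All 12 oocyte markers examined were abundant, at 374 normalized counts or more in every library, and Zar1 and Nlrp5 among them fell in KO, by limma. Their summed level was 180200 to 211558 in WT and 141327 to 181316 in KO, lowest in KO replicate 1. Summed markers of theca and luteal cells ran from 17.7 to 1892 in WT and from 9.45 to 54.0 in KO, highest in WT replicate 1, while Cyp17a1 and Star had no row. Of the 3 tested, Cyp11a1 (limma adjusted p = 0.0135) and Lhcgr (0.0317) fell in KO. Stromal markers summed to 16.6 to 73.2 in WT and 7.19 to 11.6 in KO, with Dcn lower, and immune markers to 23.2 to 54.3 and 12.7 to 17.9. Summed endothelial markers (168 to 260) and surface epithelium markers (14.8 to 29.9) overlapped between groups. The endothelial sum was mostly Pecam1 (138 to 213), which overlapped, as did Tek and Vwf. Kdr had 8.37 to 11.1 in WT and 2.11 to 3.15 in KO, without overlap, on at most 11 reads (limma adjusted p = 0.0885). Summed granulosa markers were 627 to 815 in WT and 522 to 656 in KO. None of the 8 granulosa markers tested passed in limma, and their levels differed widely. Amh was at 0 in 4 of the 6 libraries and at most 2.77, whereas Inha ran from 28.4 to 171 with overlapping groups. Cyp19a1 had 363 to 445 in WT and 301 to 336 in KO, without overlap (limma adjusted p = 0.137). In pooled oocytes, fewer cells of a type and less RNA per cell cannot be told apart.

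Kit, the receptor itself (chromosome 5, 75574916 to 75656722, plus strand, GRCm38), stood at 650, 619 and 661 normalized read counts in WT and at 645, 643 and 594 in KO (replicates 1 to 3 of each group, an order kept for all values that follow). The groups overlapped and no library stood apart. The log2 difference, KO minus WT, was -0.04 (SE 0.11, adjusted p = 0.905 in limma), with a 95% interval that ran from 0.829-fold to 1.15-fold. Kit was the most evenly measured of the 8 genes, with an SD of 21.6 around 643 in WT and of 29.3 around 627 in KO (n = 3 each). Its sign was not stable, at 0.021 when libraries were scaled to their totals and 0.0022 without KO replicate 3. Kit also marks mast cells. Of 6 mast cell markers 3 had a row, with a sum of at most 3.15 in any library, and the part of other cells in the Kit reads was not tested.

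Kitl, the Kit ligand, had 39.9, 27.9 and 24.0 in WT and 31.5, 34.9 and 38.7 in KO. Its groups overlapped (log2 fold change 0.22, SE 0.29, limma adjusted p = 0.765). Kitl is a granulosa product, and the share of these reads that comes from attached granulosa cells was not tested.

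The AKT kinases sit below PI3K. Akt1 (chromosome 12, 112653821 to 112674884, minus strand) had 164, 157 and 129 normalized read counts in WT and 137, 117 and 110 in KO. The groups overlapped only through WT replicate 3 and KO replicate 1. Akt1 had a log2 fold change of -0.31 (SE 0.17, adjusted p = 0.366 in limma), with a 95% interval from 0.631-fold to 1.04-fold. Akt1 was highest in WT replicate 1, the library with the most theca and luteal marker reads. Its log2 fold change was -0.24 without that library, and also -0.24 without KO replicate 3. The part of other cells in the Akt1 reads was not tested.

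Akt2 (chromosome 7, 27591552 to 27640826, plus strand) was scarcer, with 26.6, 45.6 and 29.5 in WT and 72.5, 41.2 and 54.0 in KO. These values rest on 24 to 69 reads per library. WT replicate 2 lay above KO replicate 2, so the groups overlapped. Its log2 fold change of 0.71 (SE 0.29) was the largest of the 8 and the least precise, with a 95% interval from 1.07-fold to 2.49-fold, and it did not pass over all genes (limma adjusted p = 0.205).

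The Akt2 values are uncertain for a reason that can be read in the sequence. A processed pseudogene, Akt2-ps, lies on chromosome 11 (16514533 to 16515981, plus strand), and 44 of 179 windows of 75 bases (the read length) along the longest Akt2 transcript, 24.6%, match it with at most 1 mismatch. Of the windows that align to it over their full length, 17 are identical, 27 differ at 1 base and 8 at 2 bases. The sequences below are from the GENCODE M21 transcripts. The first identical window inside a coding exon of Akt2 (exon 4, chr7:27618220-27618294) is shown once, since the pseudogene has the same letters at chr11:16514723-16514797. The first with 2 differences (exon 11, chr7:27636266-27636340) is shown beside the pseudogene (chr11:16515498-16515572), where capitals mark the bases that differ, A25C and G47T, counted from 1 at the 5′ end of the window with the base of Akt2 first.
Akt2 and Akt2-ps, identical window: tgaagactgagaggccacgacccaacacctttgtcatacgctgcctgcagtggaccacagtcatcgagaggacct
Akt2, window with differences: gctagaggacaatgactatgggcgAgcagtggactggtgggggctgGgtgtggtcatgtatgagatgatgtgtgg
Akt2-ps, window with differences: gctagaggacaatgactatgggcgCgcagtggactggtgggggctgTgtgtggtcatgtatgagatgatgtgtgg
A read from the first kind of window cannot be placed by its own sequence alone, though its mate may lie outside the window. The windows stand for single reads, and read pairs were not tested. How the authors counted such reads is not given in the sources used here. Akt2-ps itself was given 4.44, 5.58 and 4.62 normalized counts in WT and 3.15, 2.11 and 2.70 in KO, from 2 to 6 reads per library. Per kilobase of exon Akt2-ps had 3.06, 3.85 and 3.19 in WT beside 3.73, 6.39 and 4.14 for Akt2. In KO it had 2.17, 1.46 and 1.86 beside 10.2, 5.78 and 7.57. The length used was 1449 bases for Akt2-ps and 7131 for Akt2, whose longest transcript holds 4544. By that shorter length the Akt2 values would be higher.

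The ratio of Akt1 to Akt2 within each library, which the scaling of libraries does not touch, was also compared. The log2 ratio was 2.62, 1.79 and 2.13 in WT and 0.91, 1.51 and 1.02 in KO, so every KO library lay below every WT library. Its mean was 2.18 ± 0.42 in WT and 1.15 ± 0.32 in KO (n = 3 each, ± SD), or about 4.53 and 2.22 Akt1 reads per Akt2 read. The exact two-sided permutation test gave p = 0.1, the smallest that 3 against 3 libraries can give.

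Foxo3, the transcription factor that AKT inactivates (chromosome 10, 42181841 to 42276755, minus strand), had 224, 280 and 242 normalized read counts in WT and 407, 323 and 279 in KO. WT replicate 2 and KO replicate 3 met at 280 and 279, and KO replicate 1 lay above the rest. For Foxo3 the log2 difference was 0.42 (SE 0.15, 95% interval 1.07-fold to 1.68-fold, limma adjusted p = 0.15). Without KO replicate 1 it was 0.28. Foxo1, the more abundant relative of Foxo3, had 1040, 909 and 982 in WT and 1354, 1130.5 and 1053 in KO. These groups just failed to overlap, with a log2 fold change of 0.27 (SE 0.12, limma adjusted p = 0.241). Foxo1 shares 674 bases of exon with Gm20402 on the other strand, so its reads are less certain. Among 11 tested FOXO target genes none passed in limma. At an unadjusted p under 0.05, 1 was counted higher and 1 lower, where 18.0% of all tested genes were counted in either direction. The smallest p was that of Txnip, a thioredoxin-binding protein (log2 fold change 0.26, limma adjusted p = 0.213).

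Tsc1 and Tsc2 encode the partners of the complex that switches off RHEB, the GTPase that turns on mTOR complex 1 (mTORC1). Tsc2, the subunit with the GTPase-activating domain (chromosome 17, 24595816 to 24632630, minus strand), had 149, 126 and 116 in WT and 248, 168 and 160 in KO. Every KO library lay above every WT library, and KO replicate 1 lay far above the other KO libraries. Tsc2 had a log2 fold change of 0.54 (SE 0.18, 95% interval 1.11-fold to 1.90-fold, limma adjusted p = 0.125), and without KO replicate 1 it was 0.34. Tsc2 shares 693 bases of exon with Pkd1, which is transcribed from the other strand (chromosome 17, 24595816 to 24596508), and the cDNA libraries carry no strand information. Pkd1 itself had at most 2.79 normalized counts in any library.

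Tsc1, which stabilises TSC2 (chromosome 2, 28641228 to 28691167, plus strand), had 108, 145 and 75.7 in WT and 107, 112 and 124 in KO. The WT libraries spread around the KO values, and the log2 fold change of 0.11 (SE 0.21, limma adjusted p = 0.846) had a 95% interval from 0.788-fold to 1.48-fold. Its sign turned without WT replicate 3 (-0.13). The log2 ratio of Tsc1 to Tsc2 was -0.29 ± 0.44 in WT and -0.72 ± 0.44 in KO (n = 3 each, ± SD; exact two-sided permutation p = 0.5), and its libraries overlapped. Of the 5 genes of the TSC complex and RHEB none passed. Rheb stood at 834 to 958 in WT and 775 to 978 in KO (log2 fold change -0.03, limma adjusted p = 0.942; above 0 when scaled to library totals, and without WT replicate 3 or KO replicate 3). Rhebl1, a relative of Rheb, had 36.0 to 40.9 in WT and 59.9 to 77.3 in KO (log2 fold change 0.81, SE 0.23, limma adjusted p = 0.0617, edgeR adjusted p = 0.0408). In GENCODE M21 Rhebl1 runs from 98877778 to 98894540 on chromosome 15. There it overlaps exons of Dhh and of Gm49442, a gene on the other strand, over 546 bases. The deposited gene ends at 98881404, and whether the overlap touches its reads was not tested.

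Mtor encodes the kinase of both mTOR complexes (chromosome 4, 148448611 to 148557683, plus strand). It had 94.3, 113 and 87.7 normalized read counts in WT and 169, 136 and 130 in KO. The lowest KO library lay above the highest WT library, and KO replicate 1 was again the highest. Its log2 difference was 0.56 (SE 0.18, 95% interval 1.13-fold to 1.91-fold). Mtor had the smallest adjusted p of the 8 genes in limma (0.102) and edgeR (0.0826), while in DESeq2 that of Tsc2 (0.104) lay below that of Mtor (0.116). Over all alternative settings its limma, edgeR and DESeq2 adjusted p lay between 0.0771 and 0.304 and its log2 fold change between 0.42 and 0.66.

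Mtor lies 544 kb from Mfn2 on the same chromosome. Between the pair the table holds 13 genes, of which 12 were tested and 0 passed in limma, while 3 had an unadjusted p under 0.05, beside 18.0% of all tested genes. All 3 had lower means in KO. No gene of the interval passed in edgeR or DESeq2. The 12 log2 fold changes ranged from -1.40 to 0.74, with a median of -0.05, beside 0.56 for Mtor.

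Rptor, which encodes RAPTOR, the scaffold that presents substrates to mTORC1 (chromosome 11, 119602905 to 119899576, plus strand), had 37.7, 53.9 and 31.4 in WT and 36.8, 46.5 and 65.6 in KO. The groups overlapped throughout, and the highest and lowest libraries were KO replicate 3 and WT replicate 3. Rptor had a log2 fold change of 0.27 (SE 0.29, adjusted p = 0.689 in limma), which was 0.05 without KO replicate 3 and 0.10 without WT replicate 3. It shares 84 bases of exon with Rptoros on the other strand. Rictor, the scaffold of mTOR complex 2 (mTORC2), had 882, 708 and 958 in WT and 488, 673 and 767 in KO, lowest in KO replicate 1 (log2 fold change -0.41, SE 0.16, limma adjusted p = 0.163). The log2 ratio of Rptor to Rictor was -4.40 ± 0.62 in WT and -3.71 ± 0.16 in KO (n = 3 each, ± SD), which did not separate the groups (exact two-sided permutation p = 0.3).

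**Figure D2:**
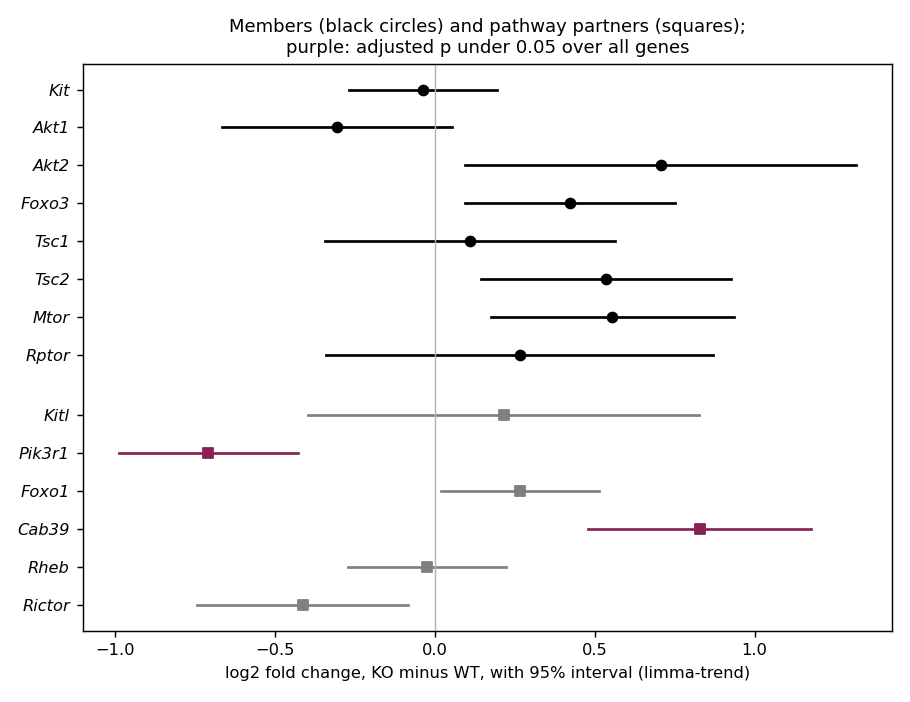
Log2 fold change (KO minus WT) with its 95% interval from limma-trend for the 8 members (black circles) and 6 partners (squares). The interval of Kit is the narrowest of the members and spans 0, those of Akt2, Foxo3, Tsc2 and Mtor lie above 0 before adjustment over all genes, and only the partners Pik3r1 and Cab39 (purple) passed the adjusted test.

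Levels can be compared between genes only per length, here as normalized reads per kilobase of annotated exon. In WT the order was Kit (72.2 ± 2.43), Akt1 (36.6 ± 4.50), Foxo3 (32.8 ± 3.77), Tsc2 (13.5 ± 1.73), Mtor (9.74 ± 1.32), Tsc1 (9.25 ± 2.93), Akt2 (4.76 ± 1.43) and Rptor (3.04 ± 0.86; SD, n = 3 each). By this length, Akt1 and Foxo3, Mtor and Tsc1, and Akt2 and Rptor overlapped between libraries and are not ordered. Kit exceeded 75.6% of the 18131 tested genes with a known length, and Rptor exceeded 27.0%. By the same length, the order of the means in KO differed at a single place: Foxo3 (44.4 ± 8.56) stood above Akt1 (29.6 ± 3.38), with no overlap. Rptor, the scaffold of mTORC1, had the lowest mean in both groups and lay apart from Akt2 only in KO. Its mTORC2 counterpart Rictor had 50.1 per kilobase in WT and 38.0 in KO. The longest annotated transcript holds 2690 of the 4098 exon bases of Akt1 and 6848 of the 7571 of Foxo3. For Akt2 it holds 4544 of 7131, and for Rptor 6594 of 13471. For Tsc1 it holds 7702 of 11833, and for Mtor 8564 of 10109. Where Akt1 stands beside Foxo3 and Tsc1 beside Mtor therefore depends on the length used. So does whether Akt2 overlaps Rptor or Tsc1, and at how many places the order in KO differed.

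**Figure D3:**
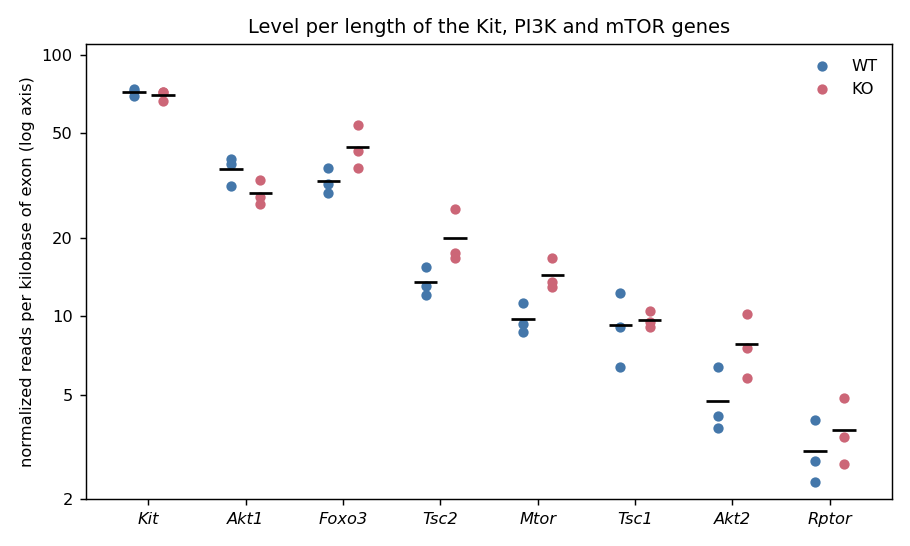
Normalized reads per kilobase of exon (log axis) for the 8 genes in each WT (blue) and KO (red) library, with means as bars; the mean is highest for Kit and lowest for Rptor in both groups.

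The same library was highest for every member with an unadjusted p under 0.05. KO replicate 1 had the highest value of all 6 libraries for Akt2, Foxo3, Tsc2 and Mtor, and it is also the library in which the summed oocyte markers were lowest. Without it the log2 fold changes of these genes were 0.50, 0.28, 0.34 and 0.44, each still above 0. Mtor alone among them then had an unadjusted p under 0.05 in limma, while Akt1, at -0.39, was then counted on the lower side. WT replicate 3 had the lowest value for Tsc1, Tsc2, Mtor and Rptor. The part of these libraries' depth or RNA quality in the values was not tested.

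**Figure D4:**
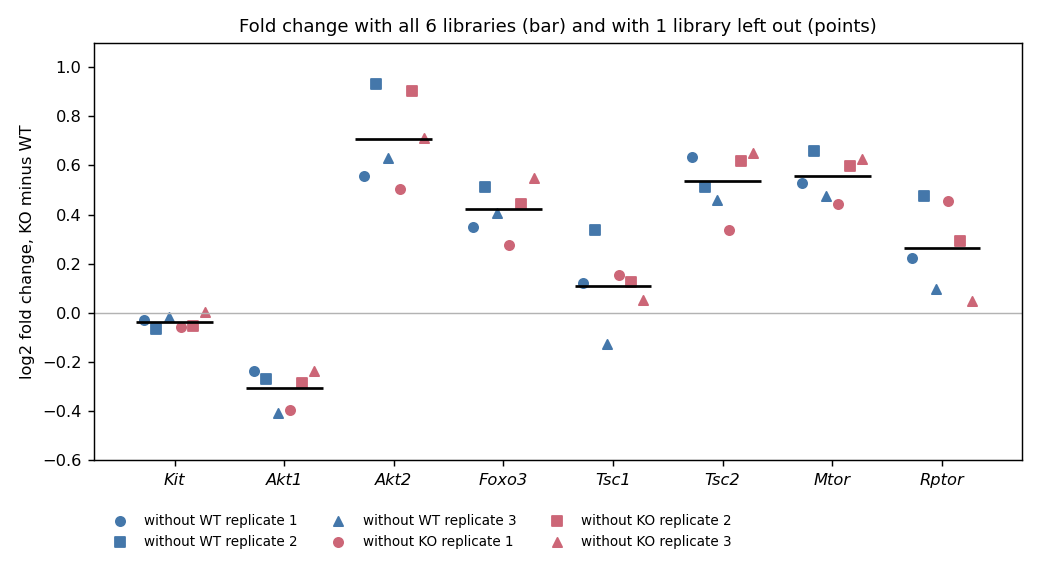
Log2 fold change (KO minus WT) of each gene with all 6 libraries (bar) and with each library left out in turn (points; blue where a WT library was left out, red where a KO library was). Akt2, Foxo3, Tsc2 and Mtor stay above 0 and Akt1 below 0 in all 6 fits, while Kit and Tsc1 cross 0.

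The wider pathway was described with 13 lists of 115 textbook genes that include the 8 members; 114 had a row and 107 were tested. Of these, 1 rose and 1 fell past the limma test, Cab39 and Pik3r1, which is 1.87% beside 3.28% of all genes. At an unadjusted p under 0.05, 20 were counted higher and 11 lower, or 29.0% of the 107, where 18.0% of all tested genes were counted in either direction. The median log2 fold change over the 107 was 0.07. The count of calls was 5 in edgeR, which tested 92 of them, and 5 in DESeq2, which gave 85 an adjusted p.

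Pik3r1, which encodes the p85alpha regulatory subunit that docks PI3K on activated receptors such as Kit (chromosome 13, 101680563 to 101768217, minus strand), fell. It had 742, 638 and 626 normalized read counts in WT and 346, 457 and 428 in KO, with a wide gap between the groups. Its log2 fold change of -0.71 (SE 0.13) passed in both tools (limma adjusted p = 0.0102, edgeR adjusted p = 0.00962). It stood at -0.63 and no longer passed when WT replicate 1 was left out (limma adjusted p = 0.0512). WT replicate 1 is the library richest in theca and luteal markers, and their part in the Pik3r1 level was not tested. Among the catalytic subunits, named after their values were seen, Pik3ca had a log2 fold change of 0.53 (SE 0.14), which missed the threshold in limma (adjusted p = 0.0514) and passed in edgeR (0.0438) and DESeq2 (0.0359). Pik3cd, at 0.42 (SE 0.12), passed in DESeq2 (adjusted p = 0.0311) and missed it in limma (0.0682) and edgeR (0.0596). Pik3cb stood at 0.07 (SE 0.19, limma adjusted p = 0.892). Of the 6 PI3K subunits tested in limma, 1 fell and none rose.

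Cab39, which encodes MO25alpha, the scaffold that activates the kinase LKB1 upstream of AMPK (chromosome 1, 85793441 to 85851576, plus strand), rose. It had 103, 144 and 126 in WT and 238, 199 and 223 in KO, so the lowest KO library stood well above the highest WT library. The log2 difference of 0.83 (SE 0.17) passed in both tools (limma adjusted p = 0.014, edgeR adjusted p = 0.0133), and the call ended without WT replicate 1 (adjusted p = 0.0625) or WT replicate 3 (0.0699). No other gene among the 10 tested of the LKB1 and AMPK branch passed in limma.

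Of the 12 subunits and assembly factors of the mTOR complexes, none passed, while 5 were counted higher and 4 lower at an unadjusted p under 0.05, where 18.0% of all tested genes were counted in either direction. Tti1, an assembly factor of mTOR, had the smallest p (118.7, 110 and 118.2 in WT, 173, 195 and 146 in KO; log2 fold change 0.56, limma adjusted p = 0.076). Subunits of mTORC2 lay on both sides of WT, and those given here were named after their values were seen. Prr5 and Mapkap1 had log2 fold changes of -0.44 (adjusted p = 0.0785) and -0.28 (0.176). Both had lower means in KO than in WT. Prr5l, another mTORC2 subunit, and Deptor, an inhibitor found in both complexes, had KO above WT with no overlap, at 0.39 (limma adjusted p = 0.141) and 0.30 (0.163). Over all tested genes, 11.5% were separated in that direction. Deptor shares 303 bases of exon with Gm9920 on the other strand, so its reads are less certain. None of the remaining lists had a call in limma. Among 27 tested genes of the amino acid branch the smallest p was that of Castor2, listed in the table as Gatsl2 (log2 fold change 1.06, limma adjusted p = 0.152). Among 11 mTORC1 targets it was that of Eif4ebp2, a translation repressor (1.45, 0.15), among 4 insulin and IGF receptors and adaptors that of Igf1r (0.92, 0.236), and among 4 other AKT targets that of Bad, a pro-death BCL2 relative (-0.77, 0.216).

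**Figure D5:**
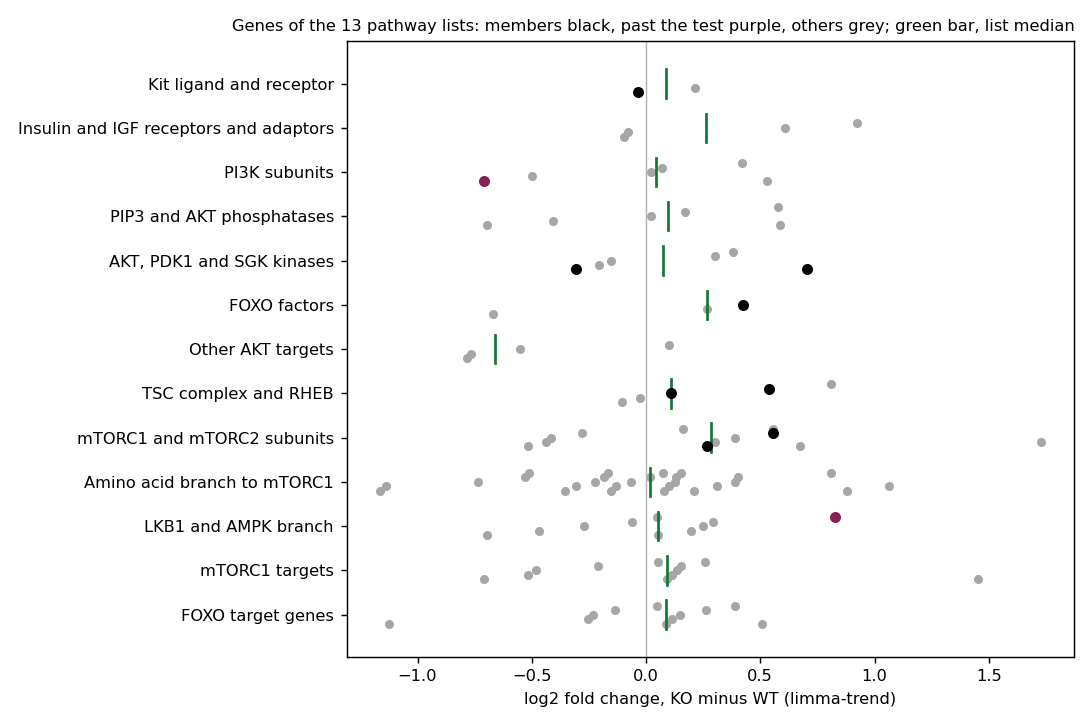
Log2 fold change (KO minus WT, limma-trend) of the tested genes of the 13 pathway lists; members are black, genes past the adjusted test purple (Pik3r1, at -0.71, and Cab39, at 0.83) and others grey, with a green bar at each list's median. Most lists have their median close to 0, and the 8 members spread from -0.31 to 0.71.

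Within these lists, the gene whose level over the 6 libraries was most like that of a member was found by Pearson's r of log2(value + 1), which describes libraries that share their scaling and is based on 6 points. It was Sod2 for Kit (r = 0.86), Foxo6 for Akt1 (0.97), Pik3cd for Akt2 (0.97), Mtor for Foxo3 (0.95), Fbxo32 for Tsc1 (0.96), Foxo1 for Tsc2 (0.96) and Pik3cb for Rptor (0.87). Foxo6 and Fbxo32 are near the limit of detection here, at up to 9.98 and 8.37 normalized counts. The partner genes of Akt2, Foxo3 and Tsc2 came from among genes that were also higher in KO, whereas that of Kit had overlapping groups.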

How the data were processed

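RNA was measured in 3 WT and 3 KO libraries of pooled GV oocytes, made by Smart-Seq2 and Nextera XT and sequenced as 75-base pairs, per the labels' protocols. The deposited values are a signal, that is, read counts that the authors normalized by a factor for each library. Partek and DESeq2 stand in the header, per the file headers. Cutadapt, FastQC, STAR, DESeq and DESeq2 with GRCm38 and mm10 are named in the submitters' processing notes; the sources used here give neither versions nor the annotation. Each column holds whole multiples of the value of 1 read (0.899 to 1.11), which gave whole reads for 100% of values above 0 within 0.1 reads.

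The test was limma-trend (limma 3.58.1, R 4.3.3) without covariates on log2(value + 1), a scale that understates the change of low genes. It covered the 18762 genes that reached a value of 1 in 3 libraries, over which the Benjamini-Hochberg adjustment was made. The intervals are those of limma and are not adjusted. The alternatives were edgeR 4.0.16 (quasi-likelihood, TMM) and DESeq2 1.42.0 on the recovered reads, other pseudocounts, filters and scalings, removal of the trend on GC content and length, a replicate block, and leaving out each library. The fits were tested on simulated data. Lengths, exons and transcripts came from GENCODE M21 (GRCm38), which may differ from the annotation used by the authors. Ends are printed as the base before the deposited end, which lay 1 base past that of GENCODE in 95.5% of matched genes. Windows were aligned with minimap2 2.31-r1302.

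The members, pathway lists and marker lists were chosen with earlier results of these data known. The rule for naming genes took the 8 members, Mfn1 and Mfn2, up to 4 genes past the threshold from each list or otherwise its gene of smallest p, and partners of the members, of which Kitl, Foxo1, Rictor and Rheb are given. Some results that the rule would name are not reported here. Castor1 and Castor2 were matched through RefSeq synonyms. Where no read was counted, counting error alone leaves room for 3 reads (a CPM of 0.375 to 0.465).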

Additional observations from a re-analysis of the deposited data

How the results depend on the processing

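The count of 0 members past the adjusted threshold was the same in all 16 alternatives. The unadjusted count of 4 ranged from 2 to 4 in either direction. For members higher in KO it ranged from 1, without KO replicate 1, to 4. Akt2, Foxo3, Tsc2, Mtor and Rptor stayed above 0 and Akt1 below 0 in every alternative. The median log2 fold change of the 8 was 0.22 after removal of the GC and length trend, beside 0.34 as reported. In that fit 3 members had an unadjusted p under 0.05 in limma, and the median of the wider lists was 0.02. The log2 fold change of Kit was 0.021 when scaled to library totals, and -0.064 to 0.0022 when 1 library was left out, the latter without KO replicate 3. That of Tsc1 was -0.0031 after removal of the GC and length trend, and -0.13 (without WT replicate 3) to 0.34 when 1 library was left out. That of Rheb was 0.033 when scaled to library totals, and -0.10 to 0.066 when 1 library was left out, with 0.024 without WT replicate 3 and the top value without KO replicate 3. The cause was not tested. The wider lists gave 2 calls as reported, 5 with a filter of 10 in 3 libraries, 6 when scaled to library totals, 5 in edgeR and 5 in DESeq2. Leaving out 1 library gave 0 to 5: 0 without WT replicate 1, 1 without WT replicate 3 and 5 without KO replicate 1. Over all genes, leaving out 1 library gave 112 to 889 calls: 262, 189 and 112 when it was WT replicate 1, 2 or 3, and 889, 321 and 379 when it was KO replicate 1, 2 or 3. Scaling to library totals gave 488 rises and 176 falls, and removal of the GC and length trend 286 and 320, against 351 and 264.

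The replicate numbers are shared between groups, and same-numbered libraries did not deviate together over all genes (correlations of -0.077, -0.018 and -0.036). Such correlations cannot tell whether same-numbered libraries were prepared together. With a replicate block, 421 genes, 0 members and 2 genes of the wider lists were called, and Mtor had a limma adjusted p of 0.147. In the paired form, the exact sign-flip test of the ratio of Akt1 to Akt2 gave p = 0.25, the smallest that 3 pairs allow. The ratio differences without 1 library ranged from -1.23 to -0.81 for Akt1 to Akt2, from -0.61 to -0.18 for Tsc1 to Tsc2 and from 0.42 to 1.03 for Rptor to Rictor. Depth limits Akt2 and Rptor most, at 24 to 73 reads per library.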
